A study of Mus musculus with 49 samples.

Results

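The antibody to IL-12p40 was given in 2 settings of this mouse study, to animals with imiquimod-treated skin and to animals drinking dextran sulfate sodium, and the question taken up here is where its effect on skin RNA differed from its effect on colon RNA. For every gene the effect in skin (antibody minus PBS vehicle, both with imiquimod, IMQ) had the effect in colon (antibody minus PBS vehicle, both with dextran sulfate sodium, DSS) subtracted from it on the log2 scale. The members are 26 of the 49 libraries of the series. They are 7 skin libraries labelled IMQ + anti mouse IL12p40 antibody, 6 skin libraries labelled PBS-IMQ, 7 colon libraries labelled DSS + anti mouse IL12p40 antibody and 6 colon libraries labelled PBS_DSS. All animals, vehicle groups included, carry the label DITRA model, after the human deficiency of the IL-36 receptor antagonist, and the mixed background 75% C57BL/6NTac 25% 129S6/SvEvTac, so no group without that background enters the comparison. The labels give no age, dose or time, and they number the libraries without saying which animal each came from, so the p-values measure the spread between these libraries. The other 23 libraries, from animals given an antibody to IL-36R or from the water-treated vehicle groups, were on neither side of the comparison. They entered the count filter, the scaling within each tissue and the estimate of the spread.

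IL-12p40, encoded by Il12b, is the subunit shared by the cytokines IL-12 and IL-23, so an antibody to it blocks both. IL-12 drives interferon gamma production by T and NK cells, and IL-23 sustains the lymphocytes that make IL-17A, IL-17F and IL-22. IL-17 acts on keratinocytes and gut epithelium to release neutrophil chemokines and antimicrobial proteins, and IL-22 acts through STAT3 on epithelial growth, barrier and repair. Imiquimod is a Toll-like receptor agonist that, applied to mouse skin, gives a psoriasis-like inflammation, and DSS damages the colonic epithelium and gives a colitis.

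The 26 libraries held 14723200 to 19678074 counts each in skin and 15506404 to 18432787 in colon. Colon PBS replicates 2, 5 and 6 stood apart from the other 3 of their group. The summed level of 24 neutrophil marker genes was 4770, 3808 and 4670 CPM (counts-per-million) in colon PBS replicates 2, 5 and 6, against 1005, 1016 and 1117 CPM in replicates 1, 3 and 4. Replicates 5 and 6 also had the lowest sums of colon epithelial markers, 10868 and 6230 CPM, against 19887 to 39524 CPM in the other 4 libraries of that group and 19532 to 42311 CPM in the 7 colon antibody libraries. Replicate 6 held 2600 CPM of epidermal keratinocyte markers, against 3.80 to 31.4 CPM in the other 5 colon PBS libraries. In skin, antibody replicate 2 held 3128 CPM of hair follicle and sebocyte markers, against 281 to 520 CPM in the other 6 skin antibody libraries and 195 to 314 CPM in the skin PBS libraries. By the sample numbers in the labels, skin PBS replicates 1 to 3 come before the skin antibody libraries and replicates 4 to 6 after them, replicate 3 stands apart from replicates 1 and 2, and the antibody libraries have an unbroken run of numbers of their own. The labels do not say what the numbers mark, and number and antibody cannot be told apart. Values are therefore also given against skin PBS replicates 1 to 3 and 4 to 6 alone and without colon PBS replicates 5 and 6. The tissues were scaled separately, so levels are read within a tissue.

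**Figure D1:**
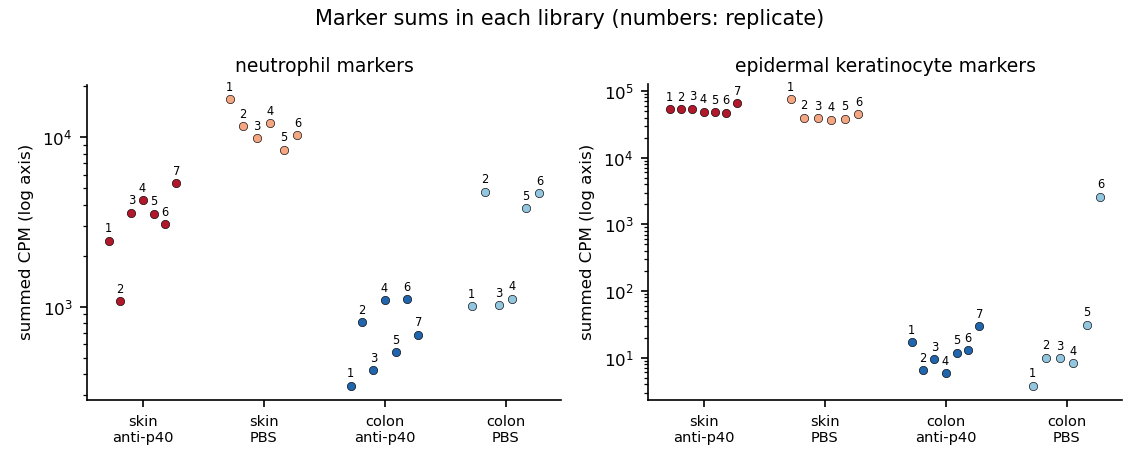
Summed CPM of neutrophil markers (left) and epidermal keratinocyte markers (right) in every compared library (log vertical axis, one point per library with its replicate number), with the antibody group left of its PBS group in each tissue. The skin neutrophil sums of the antibody group (1077 to 5378 CPM) lie below those of the PBS group (8457 to 16846 CPM), the colon PBS points split into 3 high and 3 low libraries, and colon PBS replicate 6 alone has a high keratinocyte sum.

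Of 14477 genes counted well enough in both tissues, 258 differed between skin and colon in their response to the antibody at a Benjamini-Hochberg adjusted p under 0.05 in edgeR's quasi-likelihood test, which is 1.78% of those tested. The difference was positive (more positive in skin than in colon) for 202 genes (1.4%) and negative for 56 (0.387%). In skin alone the antibody was followed by 368 genes above (2.54%) and 277 below (1.91%) the PBS group, together 4.46%. In colon alone 66 genes were above (0.456%) and 439 below (3.03%) the PBS group, together 3.49%. Among the 202 positive differences, 92 were lower in colon with no call in skin, 81 were higher in skin with no call in colon, 28 were called in neither tissue, and 1, Piwil2, was called in both, in opposite directions. Among the 56 negative differences, 42 were lower in skin with no call in colon, 4 were higher in colon with no call in skin, and 10 were called in neither. Of the 73 genes looked at singly, many of them named by this same test, 48 had a called difference. Of these 48, 37 lost the call against skin PBS replicates 4 to 6 alone, 26 without colon PBS replicates 5 and 6, 25 under limma-voom with sample weights, 24 with the 26 compared libraries fitted alone and 18 against skin PBS replicates 1 to 3 alone.

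The genes called in both tissues numbered 25, of which 22 were lower with the antibody in both. They make up 3.88% of the skin calls, where 3.49% of all genes were called in colon. They also make up 4.95% of the colon calls, where 4.46% of all genes were called in skin. Without regard to direction, the overlap was thus near the share over all genes. By direction, 22 of the 277 genes lower in skin were also lower in colon, where 3.03% of all genes were lower. Of the 368 genes higher in skin, 2 were higher in colon and 1 was lower, against 0.456% and 3.03% of all genes. Over all genes the log2 effects in skin and in colon had a Pearson correlation of 0.14 and shared their sign for 56.4% of genes. This is a description across 14477 genes, which are not independent of each other, and the tissues share no library. The median difference over all genes was 0.0058 on the log2 scale, a value that scaling within each tissue holds near 0.

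**Figure D2:**
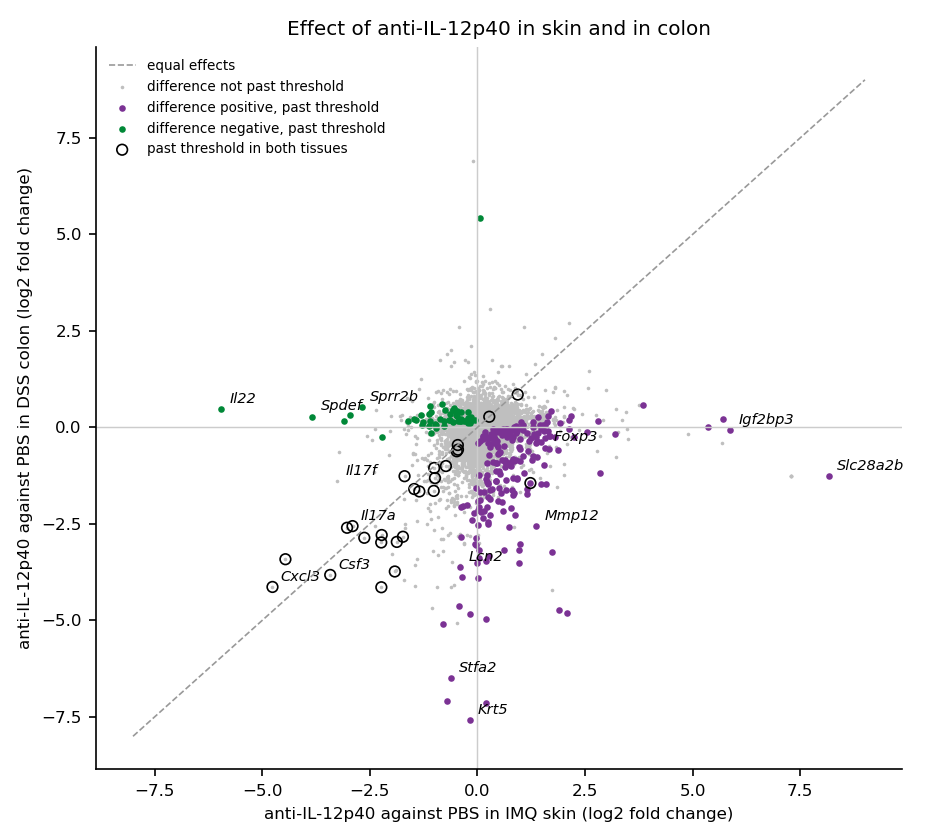
Each gene's log2 fold change with the antibody in skin (horizontal axis) and in colon (vertical axis), one point per gene tested. The 202 positive differences are purple, the 56 negative ones green, rings mark the 25 genes called in both tissues, and the dashed diagonal marks equal effects. Genes off the diagonal include some lower in colon with skin near 0, such as Lcn2, and some that moved in skin with colon near 0, such as Igf2bp3 and Sprr2b.

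Among the 4 tested IL-17 and IL-22 cytokine genes, the one with a called difference was Il22, which fell in skin and was not called in colon. Il22 (Entrez gene ID 50929; chromosome 10, 118204584 to 118210047, GRCm38) had a lowest, median and highest level of 0, 0 and 0.0595 CPM in skin antibody libraries, against 0.43, 0.822 and 3.26 CPM in skin PBS libraries. The skin groups did not overlap: 5 of the 7 antibody libraries held no Il22 count at all. Summed over libraries, Il22 had 2 counts with the antibody and 139 with PBS, a pooled level 88.7-fold lower, with an exact 95% interval of 24.1 to 739 that covers counting error only. In colon Il22 had 0.0582, 0.573 and 3.66 CPM with the antibody, against 0.0588, 0.586 and 1.81 CPM with PBS, and these groups overlapped throughout. Its log2 effect was -5.95 ± 1.15 (SE) in skin (adjusted p = 0.00102) and 0.46 ± 0.73 in colon (adjusted p = 0.806). The difference was -6.42 ± 1.43 (95% interval -9.30 to -3.54, adjusted p = 0.0115, edgeR). Set against skin PBS replicates 4 to 6 alone, the difference was -6.32, with an adjusted p of 0.0571.

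The genes of IL-17A and IL-17F fell in skin, and for them no difference between the tissues was called. Il17a (chromosome 1, 20730905 to 20734496) had 0, 0.071 and 0.306 CPM in skin antibody libraries, against 0.365, 0.627 and 2.38 CPM in skin PBS libraries, with no overlap. In colon it had 0.125, 0.294 and 0.954 CPM with the antibody, against 0.118, 1.23 and 8.15 CPM with PBS, the highest being replicate 5. Il17a fell by 2.90 ± 0.77 in skin (adjusted p = 0.0207) and by 2.56 ± 0.62 in colon (adjusted p = 0.00974), a difference of -0.34 with a 95% interval of -2.18 to 1.5. The colon fall of Il17a was not called without PBS replicate 5 (log2 -1.55, adjusted p = 0.202), nor the skin fall without PBS replicate 1 (-2.32, 0.102), without antibody replicate 2 (-2.77, 0.0538) or against skin PBS replicates 4 to 6 alone (-2.50, 0.227). Il17f (chromosome 1, 20777146 to 20785274) had 0.284, 0.412 and 1.02 CPM in skin antibody libraries, against 2.05, 3.71 and 8.44 CPM in skin PBS libraries, again with no overlap, and fell by 3.27 ± 0.54 (adjusted p = 0.000137). Its colon effect was -1.39 ± 0.55 (adjusted p = 0.171) and its difference -1.88 ± 0.78 (interval -3.44 to -0.32, adjusted p = 0.227). Without colon PBS replicate 5, at 5.28 CPM by far the highest for Il17f, that difference was -2.95 with an adjusted p of 0.0239.

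Of the 10 genes tested among IL-12 and IL-23 subunits and receptors, none had a called difference, where 1.78% of all genes had one. Il12b, the gene of the targeted subunit, was at a low level in all 4 groups, with medians of 0.721 CPM in skin antibody and 0.258 CPM in skin PBS libraries, and 0.689 CPM in colon antibody and 1.71 CPM in colon PBS libraries. Its difference was 2.03 ± 0.75 (adjusted p = 0.164). An antibody binds the protein, so the level of Il12b RNA is no check of the treatment. The gene of the IL-12-specific receptor chain, Il12rb2, had a difference of 2.28 ± 0.72 (adjusted p = 0.0922), and without colon PBS replicate 2, in which it had 0 CPM, the difference was 2.54 with an adjusted p of 0.0239. Il23r, the IL-23-specific chain, had a difference of 0.45 ± 0.49 (adjusted p = 0.736). Il23a and Ifng did not pass the count filter in both tissues and were not tested. None of 21 interferon gamma response genes had a called difference, which is near that share of 1.78%.

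**Figure D3:**
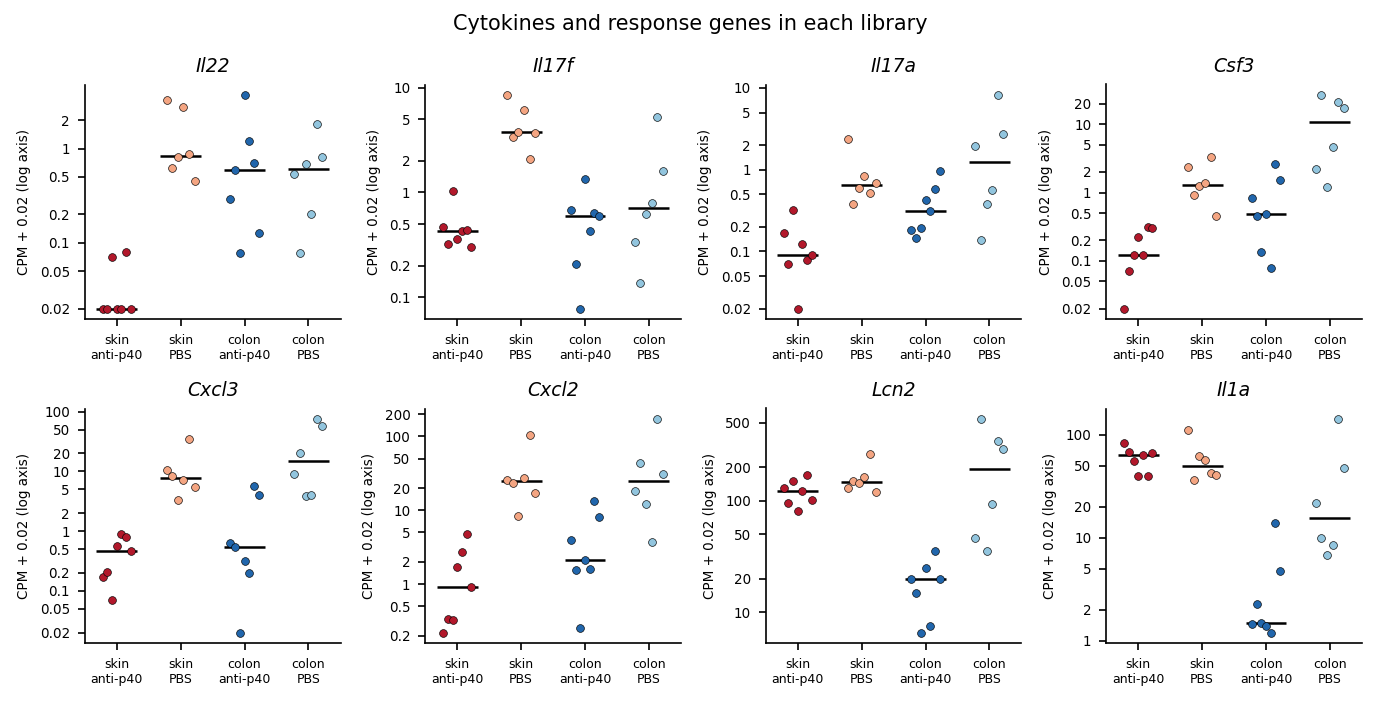
CPM of 8 cytokine, chemokine and response genes in each compared library (log vertical axis, 0.02 CPM added so that 0 can be drawn; one point per library, line at the median), with the antibody group left of its PBS group in each tissue. Il22 is near 0 in the 7 skin antibody libraries and spread over the same range in both colon groups, while Cxcl2 and Cxcl3 are lower with the antibody in both tissues.

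Neutrophil chemokines and the growth factor G-CSF included genes that fell in both tissues. Of 8 tested, 4 fell in skin (1.91% of all genes did) and 7 fell in colon (3.03% of all genes), with medians of -1.67 and -3.11 on the log2 scale, against -0.0031 and 0.0018 over all genes. Cxcl2 and Cxcl3, ligands of the neutrophil receptor CXCR2, fell in both. The 250 bases upstream of Il17a, Cxcl2, Cxcl3 and Lcn2 are shown because the first 3 fell in both tissues and Lcn2 did not. The sequences are from RefSeq (GRCm38.p6), written 5′ to 3′ on the strand of the gene and ending at its annotated start, at chr1:20730655-20730904 (plus strand), chr5:90903649-90903898 (plus), chr5:90785851-90786100 (plus) and chr2:32387740-32387989 (minus). Capitals mark matches to any of 3 short motifs searched on both strands.
Il17a: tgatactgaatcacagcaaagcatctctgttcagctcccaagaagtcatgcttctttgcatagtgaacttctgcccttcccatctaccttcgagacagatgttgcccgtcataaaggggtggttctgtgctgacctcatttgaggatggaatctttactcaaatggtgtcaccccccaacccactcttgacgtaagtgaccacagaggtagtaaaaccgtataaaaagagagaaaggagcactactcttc
Cxcl2: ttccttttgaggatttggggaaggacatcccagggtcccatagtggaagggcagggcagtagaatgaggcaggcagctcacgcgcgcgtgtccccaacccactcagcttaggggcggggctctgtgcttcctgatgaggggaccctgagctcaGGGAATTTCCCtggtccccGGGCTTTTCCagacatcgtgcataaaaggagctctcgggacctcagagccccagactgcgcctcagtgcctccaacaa
Cxcl3: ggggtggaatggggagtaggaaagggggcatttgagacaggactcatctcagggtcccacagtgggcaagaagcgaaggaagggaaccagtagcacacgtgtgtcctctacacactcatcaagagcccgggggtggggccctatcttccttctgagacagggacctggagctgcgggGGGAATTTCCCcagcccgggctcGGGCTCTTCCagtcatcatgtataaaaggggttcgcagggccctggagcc
Lcn2: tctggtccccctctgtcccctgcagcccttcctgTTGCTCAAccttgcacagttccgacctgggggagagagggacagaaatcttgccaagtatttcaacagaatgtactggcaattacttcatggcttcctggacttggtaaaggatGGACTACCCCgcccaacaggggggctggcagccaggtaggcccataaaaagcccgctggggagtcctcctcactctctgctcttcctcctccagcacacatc
The motifs were a STAT site (TTCNNNGAA), found in 6.08% of the 11420 upstream windows of tested genes, a C/EBP site (TTGCNNAA, 7.67%) and an NF-kB site (GGG, then 4 bases of any kind, then TCC, 20.7%). Il17a held no match to these letters in this window. Cxcl2 and Cxcl3 each held 3 NF-kB matches, of which 2 are the same bases read on both strands with a shift of 1. Lcn2 held 1 C/EBP and 1 NF-kB match. A match describes these letters and is not evidence of a bound site.

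Cxcl2 (chromosome 5, 90903899 to 90905938) had 0.2, 0.898 and 4.8 CPM in skin antibody libraries, against 8.44, 24.5 and 104 CPM in skin PBS libraries, and 0.233, 2.1 and 13.2 CPM in colon antibody libraries, against 3.74, 24.7 and 171 CPM in colon PBS libraries. The skin groups did not overlap and the colon groups did. Cxcl2 fell by 4.46 ± 0.90 in skin (adjusted p = 0.00152) and by 3.42 ± 0.83 in colon (adjusted p = 0.0107), and Cxcl3 fell by 4.76 ± 0.90 (adjusted p = 0.000774) and 4.13 ± 0.81 (adjusted p = 0.00124) in the same order. The differences, -1.04 (interval -3.38 to 1.29) and -0.63 (-2.97 to 1.71), leave room for effects that differ several fold in either direction. Csf3, which encodes G-CSF, fell by 3.42 ± 0.86 in skin and by 3.82 ± 0.68 in colon (adjusted p = 0.0134 and 0.000418), with a difference of 0.40 (interval -2.35 to 3.15). Cxcl2 and Cxcl3 are related neighbours, and the authors' counting divides reads that genes share. Their values were not whole in 80.8% of compared libraries for each. Which genes shared the reads was not examined.

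Further inflammatory genes that fell in both tissues were Il1b, Osm and Ptgs2. Il1b, an inflammasome-processed cytokine, had 6.63, 10.3 and 23.3 CPM in skin antibody libraries, against 34.8, 54.5 and 129 CPM in skin PBS libraries, and 10.4, 28.8 and 116 CPM in colon antibody libraries, against 72.3, 123 and 997 CPM in colon PBS libraries. Its difference was 0.56 ± 0.81 (interval -1.08 to 2.21). Ptgs2, the inducible cyclooxygenase, fell by 2.63 ± 0.63 in skin and 2.86 ± 0.60 in colon, and Osm, an IL-6 family cytokine, by 1.73 ± 0.51 and 2.83 ± 0.49 (edgeR, adjusted p = 0.00969, 0.00248, 0.0385 and 0.000305 in that order). Most of these colon falls lost their call when PBS replicates 5 and 6, chosen after the data were seen, were left out. Replicate 2, which also had high neutrophil markers, was kept, and the PBS group was then smaller. Without colon PBS replicates 5 and 6 the colon effects were -1.12 for Il1b, -1.58 for Ptgs2, -1.52 for Osm, -2.15 for Cxcl2 and -2.52 for Cxcl3, with adjusted p of 0.47, 0.321, 0.171, 0.352 and 0.222, while that of Csf3 was -3.33 with an adjusted p of 0.0159. Without replicate 5 alone, Cxcl2 (-2.31, adjusted p = 0.137), Il1b (-1.97, 0.0518) and Ptgs2 (-1.88, 0.063) were still lower in colon but lost their call. In skin, the calls of Il1b, Osm and Ptgs2 were lost without PBS replicate 5 (-1.86, -1.35 and -2.16, with adjusted p of 0.0853, 0.169 and 0.0516). That of Il1b was also lost without antibody replicate 1 or 2 (0.0544 and 0.0563), and that of Osm without any 1 of 7 skin libraries.

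Antimicrobial and neutrophil genes were among the differences that came from a fall in colon. Lcn2 (Entrez gene ID 16819; chromosome 2, 32384637 to 32387739) encodes lipocalin 2, a siderophore-binding protein of neutrophils and inflamed epithelium. Lcn2 had 80.9, 122 and 169 CPM in skin antibody libraries, against 119, 146 and 261 CPM in skin PBS libraries. Its colon levels were 6.51, 19.6 and 35.3 CPM with the antibody, against 35.3, 192 and 540 CPM with PBS, the lowest PBS library lying at the top of the antibody range. Lcn2 fell by 3.62 ± 0.45 in colon (adjusted p = 6.2e-06) and had an effect of -0.41 ± 0.42 in skin (adjusted p = 0.654). The difference was 3.21 ± 0.61 (interval 1.99 to 4.44, adjusted p = 0.00374, edgeR). It was 2.88 without colon PBS replicates 5 and 6 (adjusted p = 0.0175), 3.05 against skin PBS replicates 4 to 6 alone (adjusted p = 0.0571) and 1.94 under limma-voom (adjusted p = 0.0506).

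Of 16 tested antimicrobial genes, 9 fell in colon and 2 in skin, against 3.03% and 1.91% of all genes, and 4 had a called positive difference, against 1.4%: Lcn2, Ltf, Wfdc21 and Chil3. Wfdc21, a neutrophil-associated WAP-domain protein of mice, had 0, 0.848 and 3.05 CPM in colon antibody libraries, against 0.639, 10.2 and 28.8 CPM in colon PBS libraries, with a difference of 3.59 ± 0.78 (adjusted p = 0.0102), which was 3.52 and 3.70 against skin PBS replicates 1 to 3 and 4 to 6 alone (adjusted p = 0.0544 and 0.076) and 2.3 under limma-voom (0.157). The call of Ltf (lactoferrin) was lost without either of 2 libraries, and that of Chil3 (the chitinase-like protein Ym1) without 1. Ltf had 1365 CPM in colon PBS replicate 6 and at most 172 CPM in the other 5, and its difference of 6.63 was 4.06 without replicate 6 (adjusted p = 0.106) and 4.87 without skin antibody replicate 6 (0.143). Chil3 had 630 CPM in colon PBS replicate 2 and at most 31.1 CPM in the other 5, and its difference of 5.16 was 2.18 without it (adjusted p = 0.177). S100a9, a subunit of calprotectin, fell in both tissues, to a median of 1915 CPM in skin antibody libraries, against 6802 CPM in skin PBS libraries, and to 30.6 CPM in colon antibody libraries, against 678 CPM in colon PBS libraries. Its difference was 1.81 ± 0.81 (adjusted p = 0.268). Its skin call (adjusted p = 0.0422) was near the threshold and was lost without any 1 of 12 skin libraries, with adjusted p between 0.0517 and 0.11.

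Neutrophil marker genes as a list fell in colon in 18 of 20 tested and in skin in 1 of 20, against 3.03% and 1.91% of all genes. A called positive difference was found for 4 (Cxcr2, Mmp8, Ltf and Il1r2), against 1.4% of all genes. The median effect was -0.68 in skin and -2.79 in colon, and the median difference 1.97. Yet the summed level of the markers was lower with the antibody in both tissues, 1077 to 5378 CPM against 8457 to 16846 CPM with PBS in skin, where S100a8 and S100a9, which keratinocytes also make, form most of the sum, and 342 to 1107 CPM against 1005 to 4770 CPM with PBS in colon. In bulk tissue, fewer cells of a type and less RNA per cell cannot be told apart. Without colon PBS replicates 5 and 6, 5 of the 20 fell in colon and 1 had a called difference. The counts of calls also depend on the spread, which the fit shares between the tissues. With an edgeR fit per tissue, 528 of all genes fell in skin and 177 in colon. In that fit S100a8 was also called lower in skin (-1.70, adjusted p = 0.00901). Mmp8, the neutrophil collagenase, had 1.87, 3.52 and 24.1 CPM in skin antibody libraries, against 6.12, 10.7 and 14.2 CPM in skin PBS libraries, and 0.349, 2.69 and 7.2 CPM in colon antibody libraries, against 3.96, 47.6 and 250 CPM in colon PBS libraries. Its difference was 4.21 ± 0.93 (adjusted p = 0.0109). Against skin PBS replicates 1 to 3 or 4 to 6 alone it was 4.35 and 4.11, with adjusted p of 0.0531 and 0.111, and under limma-voom it was 1.63 (adjusted p = 0.407). Cxcr2 and Il1r2, the decoy IL-1 receptor, had differences of 2.26 ± 0.55 and 2.46 ± 0.57 (adjusted p = 0.0198 and 0.0135), and without colon PBS replicates 5 and 6 these were 1.22 and 2.32 (adjusted p = 0.322 and 0.0535). Under limma-voom they were 1.41 and 1.07 (adjusted p = 0.0631 and 0.287). Cxcr2 also lost its call without replicate 5 (1.80, 0.0754) or replicate 6 (2.06, 0.0556) alone.

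The alarmin gene Il1a and the stromal cytokine gene Il11 each fell in colon and were not called in skin. Il1a had 39.2, 63.2 and 82.7 CPM in skin antibody libraries, against 36.1, 49.4 and 111 CPM in skin PBS libraries, and its skin effect was 0.03 ± 0.49. In colon it had 1.17, 1.45 and 13.9 CPM with the antibody, against 6.79, 15.6 and 141 CPM with PBS. It fell there by 3.39 ± 0.55 (adjusted p = 0.000148), and the difference was 3.41 ± 0.74 (adjusted p = 0.00991). Without colon PBS replicate 5, the library at 141 CPM, the Il1a difference was 2.36 (adjusted p = 0.0543), and without replicates 5 and 6 it was 1.66 (0.248). With skin PBS replicates 1 to 3 alone it was 3.16 (0.0684). Il11 had 0.622, 0.691 and 1.29 CPM in skin antibody libraries, against 0.49, 0.851 and 1.44 CPM in skin PBS libraries, and 1.33, 4.61 and 10.8 CPM in colon antibody libraries, against 8.03, 38.4 and 90.4 CPM in colon PBS libraries. It fell in colon by 3.05 ± 0.43 (adjusted p = 3.3e-05), with a difference of 3.02 ± 0.69 (adjusted p = 0.0126), which was 2.46 (0.0793) without colon PBS replicates 5 and 6 and 2.78 (0.145) against skin PBS replicates 4 to 6 alone. Under limma-voom the Il11 difference was 2.06 (adjusted p = 0.153). In the IL-1, IL-18 and IL-33 system as a whole, 8 of 15 genes fell in colon and 1 (Il1b) in skin, against 3.03% and 1.91% of all genes. Another 1 of the 15 was called higher in skin, against 2.54% of all genes. Il6 fell in colon by 3.31 ± 0.62 (adjusted p = 0.000806) with no call in skin, and its difference of 2.39 ± 0.88 was not called (adjusted p = 0.159).

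Of 23 matrix metalloproteinase and repair genes, 12 fell in colon and 3 in skin, against 3.03% and 1.91% of all genes. They held 5 positive differences (Mmp8, Mmp12, Timp1, Ereg and Il11), against 1.4% of all genes, and 1 negative one (Tgfa), against 0.387%. Mmp12, the macrophage elastase (chromosome 9, 7344397 to 7360461), had 6.27, 14.8 and 31.7 CPM in skin antibody libraries, against 4.12, 6.74 and 9.21 CPM in skin PBS libraries, and 1.21, 1.92 and 5.94 CPM in colon antibody libraries, against 3.85, 15.3 and 38.3 CPM in colon PBS libraries. Its medians thus lay on opposite sides of the vehicle in the 2 tissues. The colon effect of -2.55 ± 0.50 was called (adjusted p = 0.00132), the skin effect of 1.36 ± 0.49 was not (adjusted p = 0.105), and the difference was 3.91 ± 0.70 (interval 2.50 to 5.33, adjusted p = 0.00232). It was still called without colon PBS replicates 5 and 6 (3.94, adjusted p = 0.00606) and against skin PBS replicates 1 to 3 and 4 to 6 alone (3.86 and 4.0, adjusted p = 0.0206 and 0.0307), and not under limma-voom (2.83, adjusted p = 0.055). Ereg, which encodes the EGF receptor ligand epiregulin, had a difference of 2.74 ± 0.58 (adjusted p = 0.00902) from a colon fall of 2.15 ± 0.42. Without colon PBS replicates 5 and 6 it was 2.19 (0.0665), and against skin PBS replicates 1 to 3 alone 2.50 (0.0681). Timp1, a metalloproteinase inhibitor gene, lost its call without colon PBS replicate 2 or 5 (adjusted p = 0.0502 and 0.0543) and under limma-voom (1.39, 0.151).

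**Figure D4:**
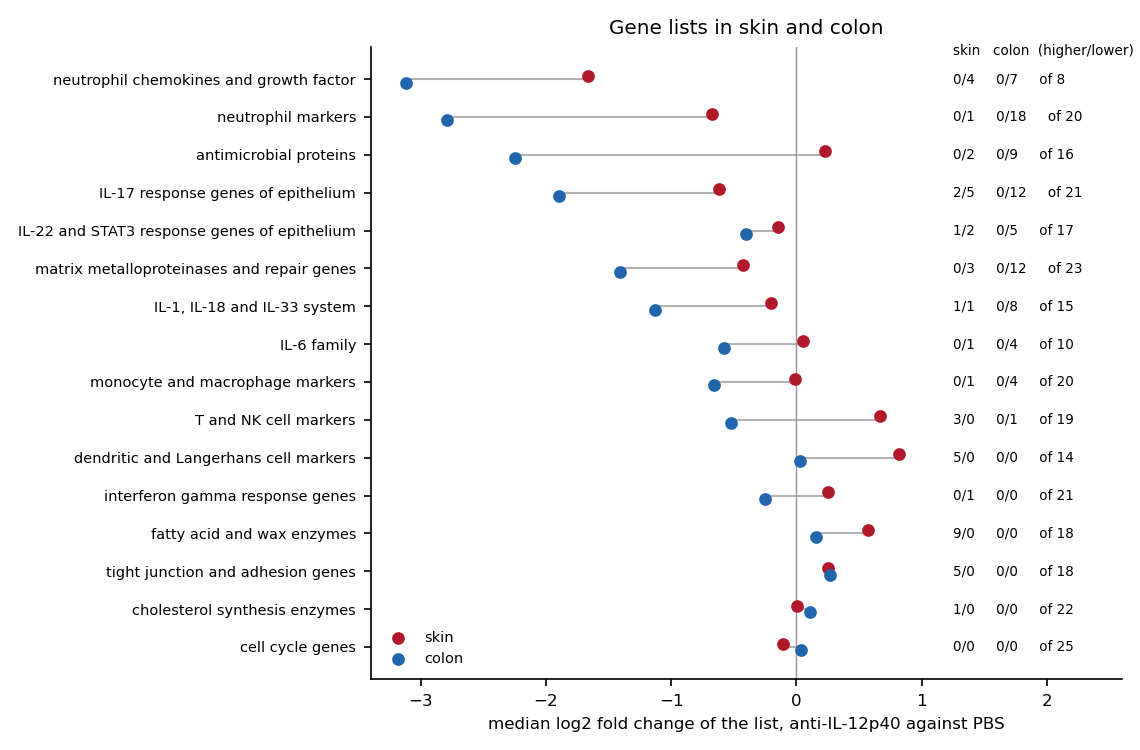
Median log2 fold change with the antibody over the tested genes of 16 lists, in skin (red) and in colon (blue), with the numbers of genes called higher and lower in each tissue and the number tested at the right. Neutrophil markers have a median of -2.79 in colon and -0.68 in skin, and fatty acid and wax enzymes had 9 of 18 genes higher in skin and none called in colon.

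Squamous epithelial genes were among the largest differences, and several rested on 1 library. Krt5, the keratin of basal keratinocytes, had 5741, 6336 and 7057 CPM in skin antibody libraries, against 6179, 7220 and 8396 CPM in skin PBS libraries. In colon PBS libraries it was at 1482 CPM in replicate 6, at 11 CPM in replicate 5 and under 1 CPM in the other 4, and no colon antibody library was above 3.45 CPM. Its difference was 7.39 ± 1.43 (adjusted p = 0.00439) with all libraries, 0.84 (adjusted p = 0.702) without colon PBS replicate 6, and -1.48 without replicates 5 and 6. The differences of Krt6b (a keratin of activated epidermis), Fat2 (a cadherin of basal epidermis), Calcb (a neuropeptide) and Ppbp (a platelet chemokine), which were 6.37, 4.67, 4.47 and 7.33, became 0.39, 0.98, 0.32 and 2.02 without replicate 6 (adjusted p = 0.925, 0.288, 0.896 and 0.365). Replicate 6 is the library with the high keratinocyte marker sum given above.

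The calls of a cluster of stefin-type protease inhibitor genes and of a serpin gene held without that library. Cstdc5 (chromosome 16, 36359382 to 36367570), a stefin-like cysteine protease inhibitor gene of mice, had 1914, 2678 and 3534 CPM in skin antibody libraries, against 3267, 4454 and 8121 CPM in skin PBS libraries. Its colon levels were 0, 0.164 and 0.917 CPM with the antibody, against 0.74, 3.38 and 47.2 CPM with PBS. The Cstdc5 difference was 4.30 ± 0.84 (adjusted p = 0.0044), and it kept its call in all 36 alternatives run. Its neighbour Stfa2 had a difference of 5.87 ± 1.24 (adjusted p = 0.0105), and Serpinb2, the plasminogen activator inhibitor of activated epithelium and macrophages, had 3.53 ± 0.71 (adjusted p = 0.00584). Against skin PBS replicates 4 to 6 alone that of Stfa2 was 6.02 (0.0618), and without colon PBS replicates 5 and 6 that of Serpinb2 was 2.73 (0.0588). Under limma-voom, which gives each library a weight, those of Stfa2 and Serpinb2 were 3.28 and 1.17 (adjusted p = 0.234 and 0.751). The stefin genes are near-identical copies whose reads the authors' counting divided, so the level of each is uncertain.

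On the skin side, Igf2bp3 gave the smallest p of the whole comparison. Igf2bp3 (Entrez gene ID 140488; chromosome 6, 49085218 to 49215469) encodes an RNA-binding protein that is mostly fetal. It had 54.2, 52.0, 40.1, 56.6, 74.6, 49.7 and 58.9 CPM in the 7 skin antibody libraries, against 0.545, 0.305, 1.95, 1.35, 0.777 and 0.553 CPM in the 6 skin PBS libraries. The skin groups were far apart, the lowest antibody library standing at 40.1 CPM and the highest PBS library at 1.95 CPM. In colon it had 1.47, 2.65 and 4.26 CPM with the antibody, against 2.12, 2.83 and 4.36 CPM with PBS. Its skin effect was 5.88 ± 0.33 (adjusted p = 2e-17), its colon effect -0.07 ± 0.28, and the difference 5.95 ± 0.42 (interval 5.10 to 6.79, adjusted p = 7.74e-14). The other skin groups, with 0.447 to 1.35 CPM after the antibody to IL-36R and 0.324 to 1.43 CPM in water-treated skin, lay in the range of skin PBS with IMQ.

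Slc28a2b, a copy of the nucleoside transporter gene Slc28a2, had the same outline at a lower level. It had 0.932, 2.04 and 2.92 CPM in skin antibody libraries and no count in any skin PBS library, 262 counts against 0. With 3 counts over the PBS group as the floor it was at least 68.4-fold higher with the antibody. Its colon levels were 0.137, 1.01 and 2.81 CPM with the antibody, against 0, 2.06 and 6.06 CPM with PBS. The difference was called (adjusted p = 0.00512), except against skin PBS replicates 4 to 6 alone (adjusted p = 0.0634). For both genes the antibody libraries also share a run of sample numbers that no PBS library belongs to.

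**Figure D5:**
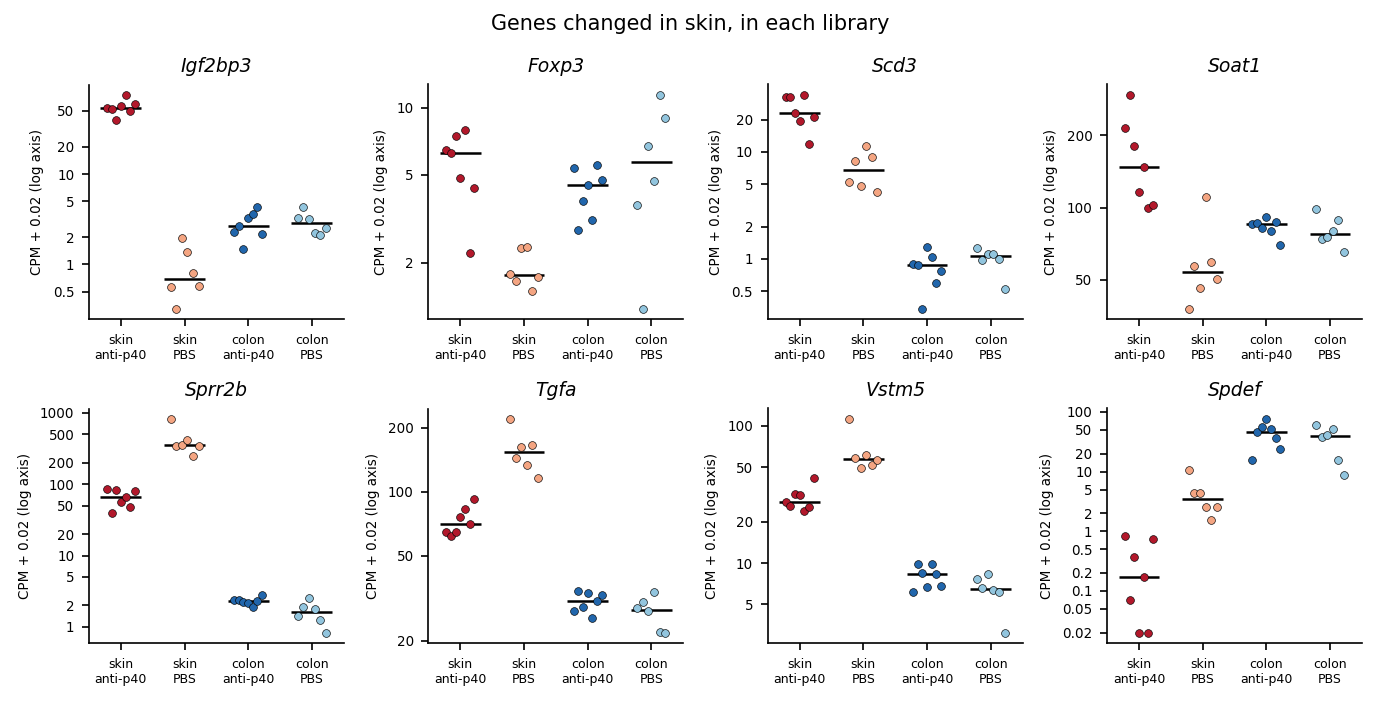
CPM of 8 genes whose difference came from skin in each compared library (log vertical axis, 0.02 CPM added; one point per library, line at the median), with the antibody group left of its PBS group in each tissue. Igf2bp3 lies between 40.1 and 74.6 CPM in the skin antibody libraries and at 4.36 CPM or below in all the others, and Sprr2b and Tgfa are lower in every skin antibody library than in any skin PBS library.

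Foxp3, the gene of the transcription factor of regulatory T cells, rose in skin with the antibody. Foxp3 (chromosome X, 7579676 to 7595243) had 2.2, 6.25 and 7.88 CPM in skin antibody libraries, against 1.48, 1.74 and 2.34 CPM in skin PBS libraries. In colon it had 2.8, 4.46 and 5.47 CPM with the antibody, against 1.22, 5.7 and 11.4 CPM with PBS. Only skin antibody replicate 6 fell within the skin PBS range. The skin effect was 1.58 ± 0.32 (adjusted p = 0.00183), the colon effect -0.53 ± 0.30 (adjusted p = 0.399) and the difference 2.10 ± 0.44 (interval 1.22 to 2.99, adjusted p = 0.00782). It was 2.14 (0.0635) against skin PBS replicates 4 to 6 alone, and 1.5 (0.0861) without colon PBS replicates 5 and 6.

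Of 19 T and NK cell markers tested, 3 rose in skin and 1 fell in colon, against 2.54% and 3.03% of all genes, and 4 had a called positive difference, against 1.4%: Foxp3, the inhibitory receptor gene Ctla4, the adhesion receptor gene Cd2 and the granzyme gene Gzmb. Their median effect was 0.67 in skin and -0.53 in colon. The marker sum was 168 to 252 CPM in skin antibody libraries, against 96 to 190 CPM in skin PBS libraries. Ctla4 and Cd2 had differences of 2.16 ± 0.53 and 1.55 ± 0.42 (adjusted p = 0.0228 and 0.0395). The Cd2 and Gzmb calls were lost without any 1 of 15 and of 14 libraries, with adjusted p of up to 0.128 and 0.223, and under limma-voom that of Gzmb was 1.21 (adjusted p = 0.205). That of Ctla4 was 1.69 (0.0846) without colon PBS replicate 5 and 2.04 (0.0538) without replicate 6, and with both left out none of the 19 had a called difference. Whether more T cells or more RNA per cell lay behind these values cannot be told apart. Of 14 dendritic and Langerhans cell markers, 5 were called higher in skin (Flt3, Clec9a, Xcr1, Itgae and Epcam), against 2.54% of all genes, none was called in colon and none had a called difference. The skin call of Clec9a was lost without any 1 of 6 libraries (adjusted p of 0.0592 to 0.116). Epcam is also on the colon epithelial list, of which 4 of 14 tested were called higher in skin, against 2.54% of all genes. Another 1, Spdef, was called lower in skin, against 1.91%, and had the only called difference of that list, a negative one. The summed level of the colon epithelial list was 195 to 574 CPM in skin antibody libraries, against 116 to 239 CPM in skin PBS libraries. The part of these markers in the result was not tested.

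Among enzymes of fatty acid and wax synthesis, 9 of 18 tested were called higher in skin (2.54% of all genes were) and 9 were not. None was called in colon, and 5 had a called positive difference (Scd3, Elovl5, Elovl6, Fa2h and Plin2), against 1.4% of all genes. Scd3, a fatty acid desaturase gene of mouse sebaceous glands, had 11.7, 23 and 33.8 CPM in skin antibody libraries, against 4.18, 6.7 and 11.2 CPM in skin PBS libraries. It had 0.324, 0.862 and 1.28 CPM in colon antibody libraries, against 0.499, 1.04 and 1.26 CPM in colon PBS libraries, and the difference was 2.06 ± 0.50 (adjusted p = 0.0198). Soat1, which esterifies cholesterol, had 99.7, 147 and 294 CPM in skin antibody libraries, against 37.9, 53.7 and 110 CPM in skin PBS libraries, with a colon effect of 0.05 ± 0.23 and a difference of 1.40 ± 0.32 (adjusted p = 0.0126). The lipid droplet protein gene Plin2 had a difference of 1.01 ± 0.25 (adjusted p = 0.0234) and the elongase gene Elovl5 one of 1.13 ± 0.28 (adjusted p = 0.0247). Fa2h, a fatty acid hydroxylase gene, and the elongase gene Elovl6 were close to the threshold (adjusted p = 0.0454 and 0.0465) and lost their call without any 1 of 18 and of 20 libraries. Scd1, the main desaturase gene of skin, rose in skin by 1.57 ± 0.46 (adjusted p = 0.037), a call lost without any 1 of 8 skin libraries, and its difference of 0.61 had an interval of -0.65 to 1.87.

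These lipid genes moved with other measured features of the skin libraries. Skin antibody replicate 2, which had the highest Soat1, Elovl5, Plin2 and Fa2h values, is the library with the high hair follicle and sebocyte marker sum, and skin PBS replicate 4 was the highest PBS library for Scd3, Soat1, Elovl5 and Fa2h. Elovl5 had a difference of 0.98 (adjusted p = 0.0556) without skin antibody replicate 2 and of 1.04 (0.0525) without replicate 1. Scd3 and Soat1 are themselves in the hair follicle and sebocyte list. Against skin PBS replicates 1 to 3 alone, 7 of the 18 enzymes rose in skin and 4 had a called difference. Against replicates 4 to 6 alone, 2 rose in skin and none had one. How far the makeup of the skin samples accounts for these values was not tested.

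Sprr2b and Tgfa were among the genes that fell in skin with no call in colon. Of 15 tested epithelial stress and activation genes, 4 fell in skin and 7 in colon, against 1.91% and 3.03% of all genes. That list held 3 positive called differences, against 1.4% of all genes, and 1 negative one (Sprr2b), against 0.387%. Sprr2b (chromosome 3, 92316705 to 92318085), a small proline-rich precursor of the cornified envelope, had 39.7, 65.5 and 85.6 CPM in skin antibody libraries, against 245, 351 and 819 CPM in skin PBS libraries, with no overlap. Its colon levels were 1.88, 2.29 and 2.75 CPM with the antibody, against 0.808, 1.58 and 2.51 CPM with PBS. Sprr2b fell by 2.68 ± 0.29 in skin (adjusted p = 2.44e-08), had a colon effect of 0.52 ± 0.38 (adjusted p = 0.542) and a difference of -3.20 ± 0.48 (interval -4.16 to -2.24, adjusted p = 0.000102). It belongs to a family of similar genes whose reads were divided in the authors' counting, so its own level is uncertain.

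Tgfa, which encodes the EGF receptor ligand TGF-alpha (chromosome 6, 86195038 to 86275744), had 62.0, 70.3 and 92.3 CPM in skin antibody libraries, against 116, 153 and 219 CPM in skin PBS libraries. The skin groups did not overlap. In colon it had 25.5, 30.8 and 34.2 CPM with the antibody, against 21.8, 28 and 33.8 CPM with PBS. The Tgfa difference was -1.25 ± 0.23 (interval -1.71 to -0.79, adjusted p = 0.00257), and it kept its call in all 36 alternatives. Vstm5, an immunoglobulin-domain membrane protein gene, had a difference of -1.46 ± 0.28 (adjusted p = 0.00374) and also kept its call in all of them. It had 24.1, 27.9 and 41.4 CPM in skin antibody libraries, against 49.3, 57.4 and 112 CPM in skin PBS libraries. Tgfa and epiregulin are ligands of the same receptor, and the difference was negative for Tgfa and positive for Ereg.

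Spdef, an ETS factor that directs goblet cell maturation in the gut, fell in skin. It had 0, 0.155 and 0.8 CPM in skin antibody libraries, against 1.55, 3.45 and 10.8 CPM in skin PBS libraries, and 15.5, 46.7 and 75.7 CPM in colon antibody libraries, against 8.93, 39.8 and 60.6 CPM in colon PBS libraries. Its skin effect was -3.84 ± 0.71 (adjusted p = 0.000594), its difference was -4.12 ± 0.87 (adjusted p = 0.00804), and against skin PBS replicates 4 to 6 alone it was -3.15 (adjusted p = 0.166). Hs3st1, a heparan sulfate sulfotransferase gene, had a difference of -1.99 ± 0.46 (adjusted p = 0.0126), from 2.42, 3.01 and 7.24 CPM in skin antibody libraries, against 9.08, 19.9 and 26.2 CPM in skin PBS libraries. Noct, a clock-linked phosphatase gene, had a difference of -1.65 ± 0.35 (adjusted p = 0.00942), Sowahb one of -1.68 ± 0.33 (adjusted p = 0.00512) and Trim6, a ubiquitin ligase gene, one of -1.79 ± 0.41 (adjusted p = 0.0126). Against skin PBS replicates 4 to 6 alone the differences of Hs3st1, Noct, Sowahb and Trim6 were -1.75, -1.39, -1.5 and -1.33, with adjusted p of 0.14, 0.12, 0.0645 and 0.262. Id1, an inhibitor of helix-loop-helix factors, had a difference of -1.43 ± 0.34 (adjusted p = 0.0177), with medians of 44.6 CPM in skin antibody and 72.6 CPM in skin PBS libraries, and of 91.7 CPM in colon antibody and 50.9 CPM in colon PBS libraries. It was -1.24 (0.161) against skin PBS replicates 4 to 6 alone and -1.28 (0.0871) without colon PBS replicates 5 and 6. The desmosomal cadherin gene Dsc2 had a difference of -1.63 ± 0.40 (adjusted p = 0.0228), which was -1.53 (0.0538) without colon PBS replicate 6.

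Piwil2, a germline Argonaute gene, was the one gene called in opposite directions. It had 4.28, 10.8 and 14.4 CPM in skin antibody libraries, against 2.05, 3.26 and 7.8 CPM in skin PBS libraries, and 0.411, 0.916 and 1.96 CPM in colon antibody libraries, against 1.14, 2.13 and 5.16 CPM in colon PBS libraries. It rose by 1.23 ± 0.35 in skin (adjusted p = 0.0329) and fell by 1.44 ± 0.39 in colon (adjusted p = 0.0249), with a difference of 2.67 ± 0.53 (adjusted p = 0.00512). The groups overlapped in both tissues, the skin call was lost without any 1 of 7 skin libraries and the colon call without any 1 of 5 colon libraries. Without colon PBS replicates 5 and 6 the difference was 2.01 (adjusted p = 0.058).

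Several lists held no called difference. Since 1.78% of all genes had one, lists of these sizes would hold few or none at that share. These were tight junction and adhesion genes (18 tested, of which 5 rose in skin, among them Cldn3, against 2.54% of all genes), type I interferon-stimulated genes (20), class II antigen presentation genes (10), cell cycle genes (25), cholesterol synthesis enzymes (22) and the 3 tested IL-36 family genes. For Cldn3, which had 0.213, 0.652 and 1.92 CPM in skin antibody libraries, against 0, 0.0557 and 0.141 CPM in skin PBS libraries, the difference of 3.16 ± 0.93 had an adjusted p of 0.0644, and it was 3.37 (0.0305) without colon PBS replicate 6. The IL-17 response genes of epithelium, 21 tested, did hold called differences. In that list 3 differences were positive, against 1.4% of all genes, and 12 genes were called lower in colon, against 3.03%. In skin, 2 of the 21 were called higher, against 2.54% of all genes. Another 5 were called lower, against 1.91%, and 14 were not called. Ccl20, an IL-17 response gene and the ligand of CCR6, rose in skin by 1.49 ± 0.39 (adjusted p = 0.0195), with 7.67, 21.3 and 30.5 CPM in skin antibody libraries, against 2.39, 5.89 and 15 CPM in skin PBS libraries. Its colon effect was 0.43 ± 0.39 and its difference 1.06 ± 0.55 (adjusted p = 0.366). Its skin effect lost its call without antibody replicate 1 (1.34, 0.0596) and without PBS replicates 2, 5 or 6 (1.42, 1.40 and 1.32, with adjusted p of 0.0531, 0.0542 and 0.0523). Nfkbiz, an NF-kB cofactor gene induced by IL-17, was just outside the threshold in skin (-0.62 ± 0.19, adjusted p = 0.0523), with a difference of -0.29 ± 0.27.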

How the data were processed

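RNA from skin and colon was measured by strand-specific RNA sequencing of poly(A) RNA, per the labels' protocols, and the submitters' processing notes name RSEM and build mm10 (the RSEM version is not given in the sources used here). The deposited values are RSEM expected counts per gene, estimated counts that divide reads shared between genes (in the compared libraries 16.5% of skin and 17.3% of colon values were more than 0.001 from a whole number). They were rounded to whole numbers. Of 24475 gene IDs, 24375 matched a symbol in RefSeq GRCm38.p6, which also gave coordinates and upstream sequences.

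Genes had to pass edgeR's count filter in skin (15345) and in colon (15731), which left 14477. TMM factors were computed within each tissue (in the compared libraries 0.830 to 1.05 in skin, 0.943 to 1.10 in colon), and CPM are counts over the scaled library total. One quasi-likelihood fit (edgeR 4.0.16, limma 3.58.1, R 4.3.3) over all 49 libraries and 8 groups gave the skin effect, the colon effect and their difference, with Benjamini-Hochberg adjustment over all genes tested and a threshold of 0.05. Fold changes are antibody over PBS, and differences are skin minus colon. The test was checked on simulated counts. The pooled spread (common biological coefficient of variation 0.232) lies between that of skin alone (0.183) and of colon alone (0.266).

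Genes were named by rule: the 10 largest called differences in each direction with a mean of at least 1 CPM in both tissues, the largest shared and opposite effects, up to 4 members per list by the p of the difference, and a fixed set of cytokine and response genes. Timp1, Elovl6 and Scd1 were named after their values were seen. The comparison, the members and the 42 gene lists were chosen with earlier results of these data known. Alternatives changed the normalization, the filter, the test (DESeq2 1.42.0, limma-voom), the libraries in the fit and the skin PBS libraries compared with, and left out each library. Leaving out colon PBS replicates 5 and 6 together was added after the data were seen.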

Additional observations from a re-analysis of the deposited data

Results flagged for a closer look

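The antibody's effect differed between skin and colon by the test of the difference itself (edgeR, adjusted p under 0.05) for 48 of the 73 genes looked at. Many of the 73 were named by this same test, so that count follows from the naming. Over all genes the share was 1.78%. The differences are given here as log2 values, skin minus colon. The positive ones come first. For squamous and related genes they were Krt5 (7.39), Krt6b (6.37), Fat2 (4.67), Stfa2 (5.87), Cstdc5 (4.30), Serpinb2 (3.53) and Calcb (4.47). Among antimicrobial and neutrophil genes they were Lcn2 (3.21), Ltf (6.63), Chil3 (5.16), Wfdc21 (3.59), Cxcr2 (2.26), Mmp8 (4.21) and Il1r2 (2.46). Cytokine, chemokine and repair genes were Il1a (3.41), Il11 (3.02), Il1rl1 (2.25), Ccl2 (2.38), Ccl7 (2.40), Ppbp (7.33), Mmp12 (3.91), Timp1 (2.29) and Ereg (2.74). T cell genes were Foxp3 (2.10), Ctla4 (2.16), Cd2 (1.55) and Gzmb (2.28). Lipid genes were Scd3 (2.06), Soat1 (1.40), Elovl5 (1.13), Elovl6 (1.47), Plin2 (1.01) and Fa2h (1.94). Outside these groups there were Igf2bp3 (5.95), Slc28a2b (9.43) and Piwil2 (2.67). The negative ones were Il22 (-6.42), Sprr2b (-3.20), Vstm5 (-1.46), Sowahb (-1.68), Spdef (-4.12), Noct (-1.65), Trim6 (-1.79), Hs3st1 (-1.99), Id1 (-1.43), Tgfa (-1.25), Dsc2 (-1.63) and Crybb3 (-1.65). Those of Krt5, Krt6b, Fat2, Calcb, Ppbp and Ltf were not called without colon PBS replicate 6, that of Ltf also not without skin antibody replicate 6, and that of Chil3 was not called without colon PBS replicate 2. Ccl2, Ccl7, Il1rl1 and Crybb3 lost their calls without any 1 of 9, 3, 2 and 2 libraries (adjusted p of up to 0.102, 0.0908, 0.0945 and 0.0653).

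One library stood far from the rest of its group, on a log2 scale with 0.1 CPM added, in 27 of 291 groups of libraries compared within a gene, and chance alone would set apart about 1 in 20. In skin antibody replicate 3 this was Il17f at 1.02 CPM. For skin antibody replicate 5 it held for Ccl2 at 41.4 CPM and Ppbp at 1.55 CPM. In skin antibody replicate 6 this was Ctla4 at 0.773 CPM and Cd2 at 2.2 CPM. For skin PBS replicate 1 it held for Ereg at 176 CPM, Vstm5 at 112 CPM and Il1rl2 at 29.2 CPM. In skin PBS replicate 3 this was Ltf at 1.95 CPM and Crybb3 at 2.85 CPM. For skin PBS replicate 4 it held for Fa2h at 161 CPM and Elovl6 at 324 CPM. In skin PBS replicate 5 this was Il1r2 at 55.6 CPM. For colon antibody replicate 1 it held for Calcb at 1.8 CPM. In colon PBS replicate 2 this was Il12rb2 at 0 CPM, Cd2 at 1.88 CPM, Crybb3 at 0.588 CPM, Ccl20 at 1.12 CPM and Clec9a at 0 CPM. For colon PBS replicate 3 it held for Slc28a2b at 0 CPM, Noct at 12.7 CPM and Id1 at 111 CPM. In colon PBS replicate 6 this was Fat2 at 45.7 CPM, Calcb at 69.5 CPM, Scd3 at 0.499 CPM, Vstm5 at 3.09 CPM and Trim6 at 8.42 CPM. No explanation was tested for these libraries.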

How the results depend on the processing

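No paired analysis was possible because the labels give the compared groups no shared replicate numbers. Counts with all choices as reported were 202 positive and 56 negative differences, 368 higher and 277 lower genes in skin, 66 higher and 439 lower in colon, and 24 genes called in both tissues in the same and 1 in opposite directions. DESeq2 size factors and TMM over both tissues left each of these within 1.5 times. Without a count filter, 100 genes were higher in colon and 3 were called in opposite directions. DESeq2's own test gave 330 positive and 91 negative differences, 100 genes higher in colon, and 41 and 3 genes called in both in the same and opposite directions. With limma-voom and sample weights, 1276 genes were higher and 1388 lower in skin, 0 and 3 in colon, and 0 and 0 were called in both in the same and opposite directions; at an unadjusted p under 0.05 the 3 counts of 0 were 474, 256 and 97. With the 26 compared libraries alone there were 84 positive differences, 11 higher and 198 lower genes in colon, and 7 and 0 called in both. With a fit per tissue, 598 were higher and 528 lower in skin, 4 and 177 in colon, and 3 were called in opposite directions. Against skin PBS replicates 1 to 3 alone there were 90 positive differences, 136 higher and 123 lower genes in skin, and 6 called in both in the same direction. Against replicates 4 to 6 alone there were 34 positive and 6 negative differences, 101 and 33 genes in skin, and 5 and 0 called in both. Both leave 3 libraries in the skin PBS group in place of 6. Without colon PBS replicates 5 and 6 there were 78 positive and 28 negative differences, 1 and 39 genes in colon, and 4 and 0 called in both. For the 3 edgeR settings with 0 genes called in opposite directions, 88, 51 and 49 genes were so at an unadjusted p under 0.05. The cause of these changes was not tested.

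Leaving out single libraries gave 100 (without colon PBS replicate 6) to 313 (without colon PBS replicate 3) positive and 30 (colon PBS replicate 6) to 136 (colon PBS replicate 2) negative differences. Skin counts ran from 213 (skin antibody replicate 2) to 482 higher and from 128 (skin PBS replicate 1) to 334 lower genes. Colon counts ran from 6 (colon PBS replicate 6) to 181 (colon PBS replicate 1) higher and from 161 to 768 lower genes, without the same 2 libraries. Genes called in both in the same direction numbered 9 to 46, and in opposite directions 0 (66 to 104 at an unadjusted p under 0.05 in edgeR) to 5.

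Across 213 named effects and 36 alternatives, 7077 of 7662 pairs kept their direction and side of the threshold, 438 lost their call, 48 gained one, 10 effects with a call turned their sign and 89 without one did. Krt5 had a difference of -0.071 under limma-voom and of -1.48 without colon PBS replicates 5 and 6, where its colon effect was 1.30. Krt6b had differences of -0.67 and -1.10 in the same settings, and a colon effect of 0.40 in the second. Calcb had a difference of -0.16 without both libraries, and colon effects of 0.49 under limma-voom, 0.65 without colon PBS replicate 6 (-3.77 to 0.65 over all single libraries left out) and 1.13 without both. Igf2bp3, Cstdc5, Vstm5 and Tgfa kept the call of their difference in every alternative. Under limma-voom 25 of 48 called differences lost their call, and 19 of these were also over 1.5 times smaller or turned their sign. That of Sprr2b was -2.71 there (adjusted p = 0.108). At this depth a gene near 0.1 CPM rests on a few counts, as for Il17a and Il22 in skin antibody libraries and Cldn3 in skin PBS libraries.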
